A study of Mus musculus with 6 samples.

Results

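The contractile and filament genes of myofibroblasts were followed here as a set of 10: Acta2, Actg2, Myh11, Myl9, Tpm1, Tpm2, Tagln, Cnn1, Des and Vim. They were chosen by name from the 55416 genes of the count table, as smooth muscle contractile genes and mesenchymal filament genes. Of the 10, 8 passed the filter on low counts, as did 17083 genes in all, and Cnn1 and Actg2 did not. A filter of this kind keeps a gene more readily where a group holds it high, so the 8 are not a summary of the 10.

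Hepatic stellate cells store vitamin A in the healthy liver. In a damaged liver they turn into myofibroblasts, which lay down scar matrix and pull on it with actin and myosin. Smooth muscle actin pairs with smooth muscle myosin, tropomyosins wind along the actin filament, and transgelin and calponin bind it. Desmin and vimentin form the intermediate filaments that hold the cell in shape. Smooth muscle cells around hepatic arteries and portal veins use the same contractile proteins, so whole liver RNA carries a contribution from the vessel wall at all times.

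RNA came from whole liver of male mice that were 8 to 10 weeks old when they were given tamoxifen for 5 days, in 3 libraries per genotype. All animals carried floxed Ephb2, the gene of a receptor tyrosine kinase for ephrin-B ligands. WT stands for Ephb2flox/flox animals without Cre, and KO for Ephb2flox/flox-PdgfrbCreERT2 animals, in which tamoxifen activates Cre in cells with an active Pdgfrb promoter. Those cells include stellate cells, pericytes and vascular smooth muscle, and other liver cells keep the gene. All mice then ate a choline-deficient, L-amino acid-defined diet for 8 weeks, with 45% of calories as fat, 0.1% methionine and 1% cholesterol, which gives mice a fatty and scarred liver. No group carried Cre without floxed Ephb2 and none was without the diet, so neither a Cre effect nor the effect of the diet on these genes can be read here. The labels number the samples within a genotype without saying more. A p-value here sets the difference between genotypes against the spread of these samples, part of which may be technical.

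Total counts ran from 21160690 to 26339251 per library. Ephb2 stood at 9.46, 8.28 and 12.4 CPM (read counts relative to library size, scaled by TMM factors) in WT livers, and at 6.01, 8.87 and 6.95 CPM in KO livers, with overlap between the genotypes (log2 fold change -0.46, SE 0.21, edgeR adjusted p = 0.850). The test called 0 of 17083 genes between the genotypes (edgeR quasi-likelihood test, Benjamini-Hochberg adjusted p under 0.05), with 886 at an unadjusted p under 0.05. DESeq2 called 7 genes and limma-voom 0, with 837 and 881 at an unadjusted p under 0.05. The 10 hepatocyte markers summed to 83972 to 101961 CPM per library, so the labelled tissue's own markers were abundant. Of 13 skeletal muscle markers, Myh4, Tnnc2 and Pvalb were at 0 in every library, and the 13 together reached at most 1.34 CPM in WT livers, and 1.74 CPM in KO livers.

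Smooth muscle genes are classic targets of serum response factor, which binds the CArG box: CC, then 6 bases that are A or T, then GG. The box reads the same way on both strands. RefSeq promoter windows (GRCm38.p6) were found for 7 of the 10 genes, all but Tagln, Actg2 and Myh11, and the 250 bases before the start were searched. A box with at most 1 G or C in its core was found before Acta2 and Myl9, and in 8.59% of all 32851 windows. A box with a pure A and T core was found before Myl9 alone of the 7, and in 1.47% of all windows. The matches are shown with the box in capitals and 10 bases on each side.
Acta2, 84 bases before the start (GRCm38 chr19:34255438-34255467, minus strand): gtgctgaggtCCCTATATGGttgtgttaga
Acta2, 34 bases before the start (chr19:34255388-34255417, minus strand): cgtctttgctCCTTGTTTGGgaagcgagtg
Myl9, 161 bases before the start (chr2:156775293-156775322, plus strand): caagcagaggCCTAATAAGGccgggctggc
Myl9, 99 bases before the start (chr2:156775355-156775384, plus strand): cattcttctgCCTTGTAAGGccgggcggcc
Both Acta2 boxes hold 1 G or C in the core. GENCODE M21 starts Acta2 further upstream than RefSeq does, so the same positions lie within an annotated exon there. For the other 5 windows only the absence of these letters is known.

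The smooth muscle actins are close paralogs, and reads can only be assigned to one of them where they differ. The coding sequences of Acta2 and Actg2 are 84.4% identical over 1131 aligned bases, and their longest identical run is 29 bases. Within the longest gap-free part of the alignment, the stretch of 60 bases with the most differences, 16, runs from coding base 436 in Acta2 and 433 in Actg2 and is shown with the differing bases in capitals (GENCODE M21).
Acta2: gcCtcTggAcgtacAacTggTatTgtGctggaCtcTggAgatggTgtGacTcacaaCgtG
Actg2: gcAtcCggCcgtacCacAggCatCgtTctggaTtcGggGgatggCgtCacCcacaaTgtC
Tpm1 and Tpm2 are 75.6% identical in coding sequence and Des and Vim 71.2%. Over the transcripts of M21, 0 of the 150-base words of any of the 10 genes, a read's length, occur in a transcript of another gene.

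Per length of exon, vimentin led the set in every library and Cnn1 was the lowest in 5 of 6. The levels in this order were 43.3 ± 3.94 CPM per kb for Vim, 16.4 ± 1.16 for Tpm1 and 13.3 ± 0.992 for Tagln (SD, n = 6 libraries). Acta2 followed at 6.21 ± 1.12, Myl9 at 4.27 ± 0.716 and Des at 3.92 ± 0.0962 CPM per kb. The lowest were Tpm2 at 1.19 ± 0.189, Myh11 at 0.749 ± 0.210, Actg2 at 0.252 ± 0.156 and Cnn1 at 0.0862 ± 0.0905 CPM per kb. Acta2 lay above Myl9 in 6 of 6 libraries but their ranges overlapped, Myl9 lay above Des in only 4, and Tpm2 above Myh11 in 5. The defining genes of contractile smooth muscle, Myh11 and Cnn1, thus stood far below vimentin and Tpm1, which many liver cells make. Vim and Tpm1 together took 79.9 to 83.8% of the CPM of the 10 genes in a library. Exon length is the union over all transcripts of a gene, which understates genes with many partly used transcripts such as Tpm1, with 21 annotated.

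**Figure D1:**
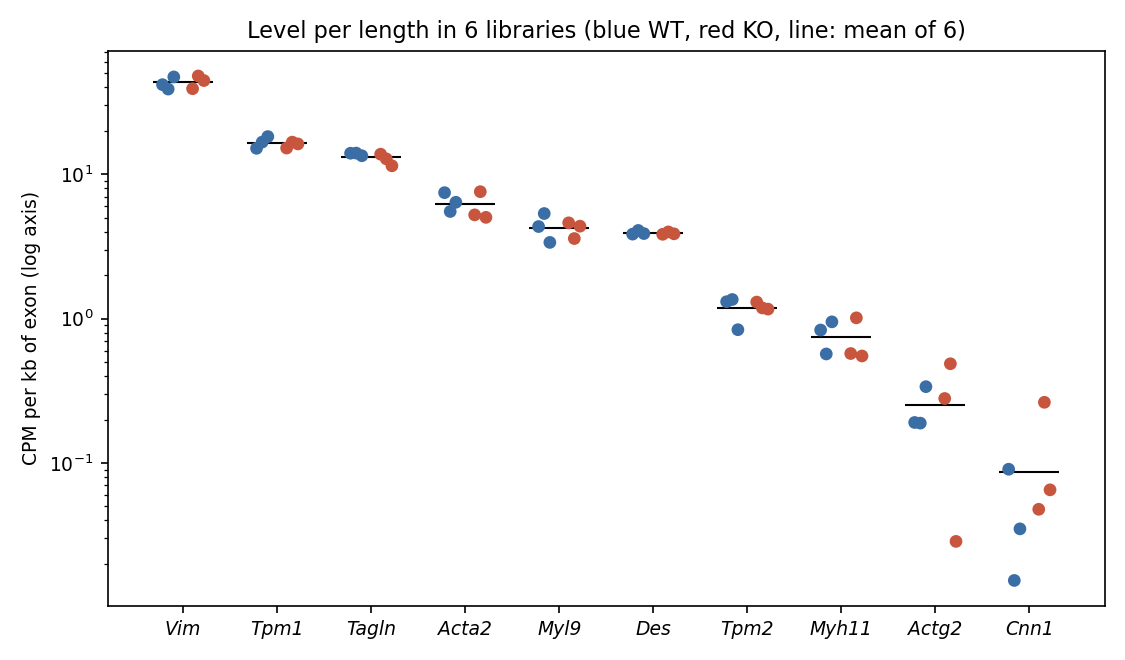
Level of each gene in CPM per kb of exon on a log axis, 1 point per library (blue WT, red KO) and a line at the mean of 6. Vim stands at 39.0 to 48.0 in all libraries, while Actg2 and Cnn1 spread over more than the other genes, at 1 to 20 and 1 to 19 reads per library.

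None of the 8 tested genes passed the test between KO and WT liver, where the share called over all genes was 0%. Also 0 of the 8 had an unadjusted p under 0.05, a mark that 5.19% of all genes tested reached, 3.08% higher and 2.1% lower in KO. The CPM of the genotypes overlapped in all 10 genes, and over all genes tested 11.1% did not overlap, 6.21% with KO higher and 4.9% with KO lower. The median log2 fold change of the 8 was -0.06 against -0.0048 over all genes, with 6 lower and 2 higher in KO. Scaling by library size alone put the median of all genes at 0.07 and that of the 8 at 0.02, with 5 of 8 higher. For 7 of the 8, all but Myh11, the 95% interval of the fit with all libraries excluded a change of 1.5-fold in either direction. The margin was narrow for Acta2, with a lower bound of 0.682-fold, and for Tpm2, with an upper bound of 1.48-fold. These intervals are for single genes and are not adjusted over genes. Leaving out KO replicate 2 moved the log2 estimate of Acta2 to -0.33 (SE 0.16). Leaving out WT replicate 2 moved that of Tpm2 to 0.18 (SE 0.25). With these SEs a 95% interval reaches past 1.5-fold in both fits, so for Acta2 and Tpm2 the exclusion depends on single libraries. Intervals of the other fits with a library left out were not computed. In RNA from whole liver, fewer cells of a type and less RNA per cell cannot be told apart.

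Acta2, smooth muscle actin and the usual marker of a myofibroblast, was at 16.4, 12.1 and 14.1 CPM in WT livers, and at 11.5, 16.6 and 11.1 CPM in KO livers. KO replicate 2 was the highest of the 6 and the other KO libraries were the lowest. The means were 14.2 ± 2.13 and 13.1 ± 3.11 CPM (SD, n = 3), 0.922-fold with an interval of 0.682 to 1.25 (edgeR adjusted p = 0.909). The log2 fold change of -0.12 went to -0.33 without KO replicate 2 and to -0.0084 without WT replicate 1, with a smallest adjusted p of 0.697 over all alternatives. Acta2 (ENSMUSG00000035783) lies on chromosome 19 of GRCm38 at 34241090 to 34255590 on the minus strand and has up to 9 exons.

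Actg2, the enteric smooth muscle actin of gut and other hollow organs, was at the edge of detection. It had 6, 7 and 11 reads in WT livers, and 10, 20 and 1 reads in KO livers, or 0.372 ± 0.133 and 0.413 ± 0.357 CPM (SD, n = 3). KO replicates 2 and 3 were the highest and the lowest of the 6. Without a count filter edgeR put its log2 fold change at 0.18 (SE 0.64, adjusted p = 0.962), and at -0.61 without KO replicate 2.

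Myh11, the heavy chain of smooth muscle myosin, was at 6.34, 4.33 and 7.22 CPM in WT livers, and 4.36, 7.70 and 4.19 CPM in KO livers. Each genotype thus held both high and low livers, with a highest value 1.67 times the lowest in WT livers, and 1.84 times in KO. The log2 fold change was -0.13 (SE 0.29, 95% interval -0.80 to 0.54, edgeR adjusted p = 0.930), the widest interval among the 8. It lay at -0.48 without KO replicate 2 and above 0 without WT replicate 3 (0.031), KO replicate 1 (0.00055) or KO replicate 3 (0.021). Myl9, the regulatory light chain whose phosphorylation starts contraction, did not follow its heavy chain. It was at 5.05, 6.22 and 3.92 CPM in WT livers, and 5.36, 4.17 and 5.08 CPM in KO livers, so its lowest libraries, WT replicate 3 and KO replicate 2, were those with the most Myh11. Its log2 fold change was -0.06 (SE 0.21, adjusted p = 0.958), and it lay above 0 with library size scaling or without WT replicate 2 or KO replicate 2. Myh11 (ENSMUSG00000018830) lies on chromosome 16 at 14194535 to 14291372, with up to 42 exons, and Myl9 (ENSMUSG00000067818) on chromosome 2 at 156775420 to 156781658.

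The tropomyosins differed in abundance and not detectably in genotype. Tpm1 was at 98.2, 108 and 118 CPM in WT livers, and 98.6, 108 and 105 CPM in KO livers, a log2 fold change of -0.06 (SE 0.098, 95% interval -0.28 to 0.17). Its 0.961-fold value had a 95% interval of 0.822 to 1.12. Tpm2, the form typical of contractile cells, was at 3.81, 3.95 and 2.44 CPM in WT livers, and 3.79, 3.45 and 3.39 CPM in KO livers. WT replicate 3 was the highest library for Tpm1 and the lowest for Tpm2, and Tpm1 was 48.5 times Tpm2 there against 25.8 to 31.4 times in the other 5. The log2 fold change of Tpm2 was 0.06 (SE 0.22, adjusted p = 0.964) and went to -0.13 without WT replicate 3. Tpm1 (ENSMUSG00000032366) lies on chromosome 9 at 67022590 to 67049406 and Tpm2 (ENSMUSG00000028464) on chromosome 4 at 43514711 to 43523765. Counts per gene do not separate the muscle and nonmuscle transcripts of Tpm1.

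Tagln, or SM22-alpha, an early marker of smooth muscle and of activated stellate cells, had the smallest p of the set. It was at 27.8, 27.9 and 26.7 CPM in WT livers, and 27.4, 25.4 and 22.8 CPM in KO livers. WT was tight at 27.5 ± 0.651 CPM and KO lay at 25.2 ± 2.32 CPM (SD, n = 3), with KO replicate 1 inside the WT range. The log2 fold change of -0.12 (SE 0.097, 95% interval -0.35 to 0.10) did not pass (unadjusted p = 0.234, edgeR adjusted p = 0.856), and it stayed below 0 under each of the 16 alternatives, from -0.19 to -0.046. The antisense gene Gm48529 overlaps 62.4% of the exon bases of Tagln, and Pcsk7 5.43%, both on the opposite strand. Gm48529 itself counted 1.83 to 3.20 CPM in the 6 libraries. The library kit was directional, but the strand setting of the counting is not given in the sources used here, so reads of these partners cannot be told apart with certainty. Tagln (ENSMUSG00000032085) lies on chromosome 9 at 45929619 to 45936058.

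Cnn1, calponin 1, which marks mature smooth muscle, had 5, 1 and 2 reads in WT livers, and 3, 19 and 4 reads in KO livers. KO replicate 2 thus held 19 of the 26 KO reads, and the other 2 KO libraries held 7 together against 8 in all 3 WT libraries. Without a count filter edgeR put the log2 fold change at 1.45 (SE 0.81, adjusted p = 0.826) and at 0.29 (SE 0.97) without KO replicate 2. Over the 6 libraries left out in turn it ran from 0.29 to 2.29, the latter without WT replicate 1 (SE 0.99, adjusted p = 0.909). KO replicate 2 was the highest library for 5 of the 10 genes, with Cnn1 also Actg2, Acta2, Myh11 and Vim. Over all genes with a mean of at least 1 CPM, which leaves out Cnn1 and Actg2, it was the highest for 14.4%. It was also the highest for 5 of 7 markers of the mesothelium, the cell layer on the liver surface. Among those, Muc16 was at 6.33 CPM there and at 0.792 to 2.45 CPM in the other 5, Upk3b at 3.15 against 0.840 to 1.292 CPM, and Lrrn4 at 1.90 against 0.210 to 0.765 CPM. Msln was at 2.05 CPM there and at most 1.91 CPM elsewhere, and Upk1b at 0.607 against at most 0.446 CPM. The other 2 markers peaked in KO replicate 3, Gpm6a at 11.99 CPM against 10.1 CPM in KO replicate 2 and Wt1 at 7.26 against 4.06 CPM. This reading of the list was made after its values were seen, and the part of mesothelium in the reads of Cnn1 was not tested.

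Des, desmin, marks stellate cells of rodents in both the resting and the activated state, and was the steadiest gene of the set. It was at 14.5, 15.3 and 14.6 CPM in WT livers, and 14.4, 14.98 and 14.5 CPM in KO livers, so the highest of 6 was only 1.06 times the lowest. The fold was 0.990 with a 95% interval of 0.847 to 1.16 (edgeR adjusted p = 0.978). Vim, vimentin, is made by stellate cells, fibroblasts, endothelium and leukocytes alike. It was at 198, 185 and 224 CPM in WT livers, and 186, 228 and 212 CPM in KO livers, a fold of 1.03 with a 95% interval of 0.851 to 1.25 (adjusted p = 0.949). WT replicate 3 and KO replicate 2, the highest for Vim, were also the highest for the sum of 10 leukocyte markers, at 2128 and 2008 CPM against 1591 to 1876 CPM. The part of leukocyte RNA in Vim was not tested. Des (ENSMUSG00000026208) lies on chromosome 1 at 75360329 to 75368579 and Vim (ENSMUSG00000026728) on chromosome 2 at 13573927 to 13582826.

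**Figure D2:**
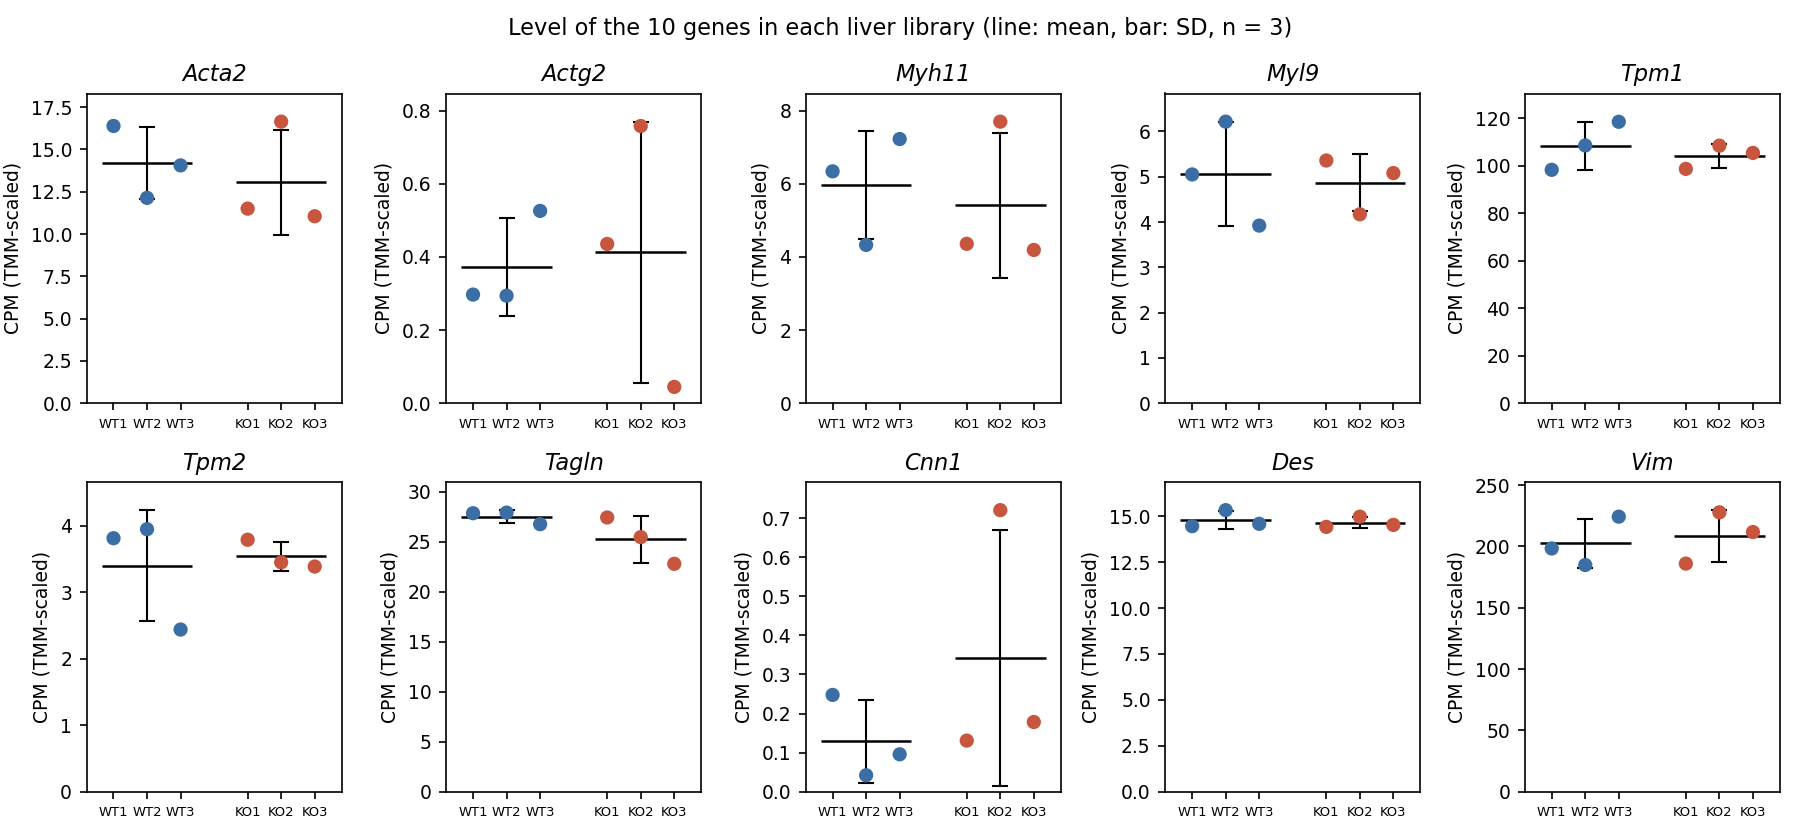
CPM of each of the 10 genes in the 3 WT (blue) and 3 KO (red) libraries, each axis from 0, with the mean as a line and the SD as a bar. The genotypes overlap in every panel, Des is nearly level, and KO replicate 2 carries the high values of Cnn1 and Actg2.

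**Figure D3:**
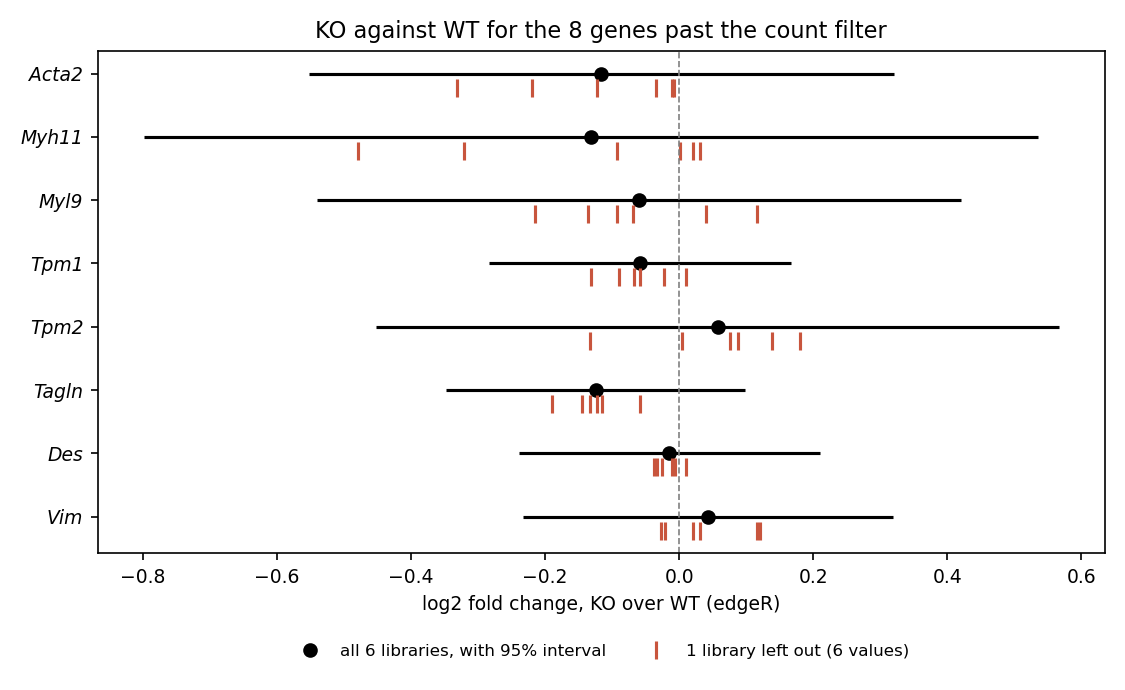
log2 fold change of KO over WT for the 8 tested genes, with the 95% interval as a black line and the values with 1 library left out as red ticks. Every interval crosses 0, and the ticks of Myh11 run from -0.48 to 0.031.

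Livers of the same genotype differed in acute phase RNA, which codes for secreted inflammation proteins of hepatocytes such as serum amyloid A. The sum of 11 acute phase genes was 12332, 5586 and 15989 CPM in WT livers, and 6421, 20132 and 5607 CPM in KO livers. Myh11 and Acta2 were each higher in WT replicates 1 and 3 and KO replicate 2, the 3 libraries with the most acute phase RNA, than in any of the other 3. These were 2 of the 8 tested genes, and 10.6% of all genes tested had the same 3 libraries highest, 1817 genes in number. Of the lists given below, 6 of 10 leukocyte markers and 7 of 25 nonmuscle actomyosin and actin-binding genes did so too. So did 2 of 21 tested smooth muscle contractile genes outside the set, and 3 of 11 other intermediate filament and linker genes. Among stellate cell and pericyte markers it was 2 of 12, and among hepatocyte markers 2 of 10. Among tested regulators and targets of serum response factor, myocardin and YAP/TEAD it was 3 of 15, and among tested mesothelial markers 1 of 6. Among bile duct, endothelial and tested portal fibroblast markers it was 0 of 8, 0 of 9 and 0 of 8. Whether the contractile genes do so more often was not tested. Of the 11 vascular smooth muscle markers only 1 divided the libraries so, Rcan2, a calcineurin regulator, at 14.4, 6.51 and 12.1 CPM in WT livers, and 6.19, 11.1 and 5.30 CPM in KO livers. The other 10 markers did not, and neither did Tagln, Myl9, Tpm1, Tpm2, Des and Vim. Among the 10, Olfr558, Pln and Map3k7cl were near 0 and could hardly show it. Mustn1 missed it narrowly, with KO replicate 2 at 9.86 CPM against 9.91 CPM in WT replicate 2. Notch3 was highest in KO replicate 3 at 15.02 CPM. Mcam was at 10.6 CPM in WT replicate 1 and 16.4 CPM in KO replicate 3. Pdgfrb, the gene whose promoter drives Cre, ran the other way in WT, at 55.4, 95.3 and 49.6 CPM, and stood at 68.0, 68.0 and 84.5 CPM in KO livers. Per unit of Pdgfrb, Acta2 was at 0.296, 0.127 and 0.284 in WT livers, and 0.169, 0.245 and 0.131 in KO, again with overlap. These libraries were not chosen as groups by the study, no test was made on them, and the part of acute phase state in Acta2 or Myh11 was not tested.

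**Figure D4:**
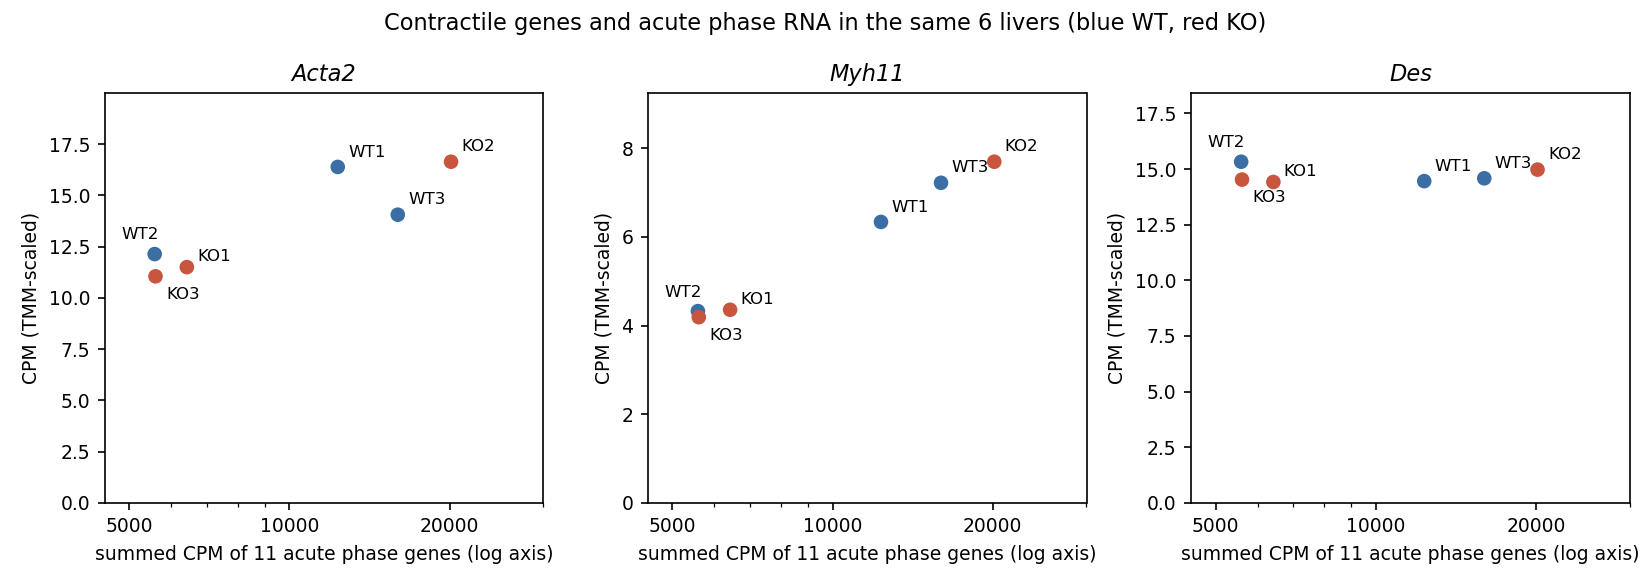
CPM of Acta2, Myh11 and Des (axes from 0) against the summed CPM of 11 acute phase genes (log axis), 1 point per library, blue WT and red KO. Myh11 stands at 4.19 to 4.36 CPM in the 3 libraries with little acute phase RNA and at 6.34 to 7.70 CPM in the other 3, and Des does not follow.

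Other genes of the contractile machinery were read as lists, none of which had a gene past edgeR's test. Of 22 further smooth muscle contractile genes 21 were tested, with 12 higher and 9 lower in KO and a median log2 fold change of 0.04. The smallest p were those of Jph2, junctophilin 2, which ties the cell membrane to the calcium store in muscle, and of Aoc3, an amine oxidase of smooth muscle and endothelium. Jph2 was at 0.743, 0.378 and 0.287 CPM in WT livers, and 0.828, 1.14 and 1.11 CPM in KO livers (log2 fold change 1.13, SE 0.39, adjusted p = 0.850). Aoc3 was at 0.283 ± 0.0999 CPM in WT livers, and 0.693 ± 0.327 CPM in KO livers (SD, n = 3). Both are scarce. Over the list, 5 genes did not overlap between the genotypes. KO was higher in 3 of them, Jph2, Aoc3 and Ppp1r12b (34.4 to 34.7 CPM in WT livers, and 34.8 to 37.9 CPM in KO livers), where the share over all genes was 6.21%. KO was lower in 2, where that share was 4.9%: Pdlim7 at 21.2 to 22.5 against 19.3 to 20.7 CPM, and Ppp1r14a at 2.98 to 3.76 against 2.39 to 2.79 CPM. Mylk, the kinase that phosphorylates Myl9, was at 205, 201 and 141 CPM in WT livers, and 199, 231 and 240 CPM in KO livers, and was named after its values were seen.

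The 25 nonmuscle actomyosin and actin-binding genes were all tested, with 7 higher and 18 lower and a median of -0.04. None of them had an unadjusted p under 0.05. The smallest p were those of Tmsb10, a thymosin that holds actin monomers (log2 fold change 0.19, SE 0.11), and Pfn1, profilin (-0.17, SE 0.13). Actb, the abundant nonmuscle actin, was at 2360 to 3036 CPM in WT livers, and 2430 to 2709 CPM in KO livers. Of 11 other intermediate filament and linker genes, 5 were higher and 6 lower, with a median of -0.06. The bile duct keratins Krt19 and Krt7 had the smallest p there, at 15.4 ± 2.28 and 7.79 ± 1.497 CPM in WT livers, and 20.01 ± 1.77 and 10.4 ± 0.655 CPM in KO livers (SD, n = 3), with adjusted p = 0.850 each in edgeR. They also belong to the list of bile duct markers.

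Regulators and targets of serum response factor, myocardin and the YAP/TEAD pathway, which drives mechanically induced genes, gave 9 higher and 6 lower among 15 tested of 16, with a median of 0.07. Vgll3, a cofactor of TEAD, was at 6.04, 7.23 and 5.40 CPM in WT livers, and 6.88, 9.78 and 10.96 CPM in KO livers. Ankrd1, a target of YAP, was at 7.57 ± 1.70 and 11.2 ± 2.28 CPM (SD, n = 3), and both overlapped between the genotypes and had adjusted p = 0.850 in edgeR. Srf was at 22.6 to 25.4 CPM in WT livers, and 19.7 to 26.5 CPM in KO livers. Myocd, the smooth muscle coactivator, reached at most 0.504 CPM in any library and was not tested. Of 11 sarcomeric actin and myosin genes, only Myl4 passed the count filter (log2 fold change -0.56, SE 0.37), and Myh6 was at 0 in every library.

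**Figure D5:**
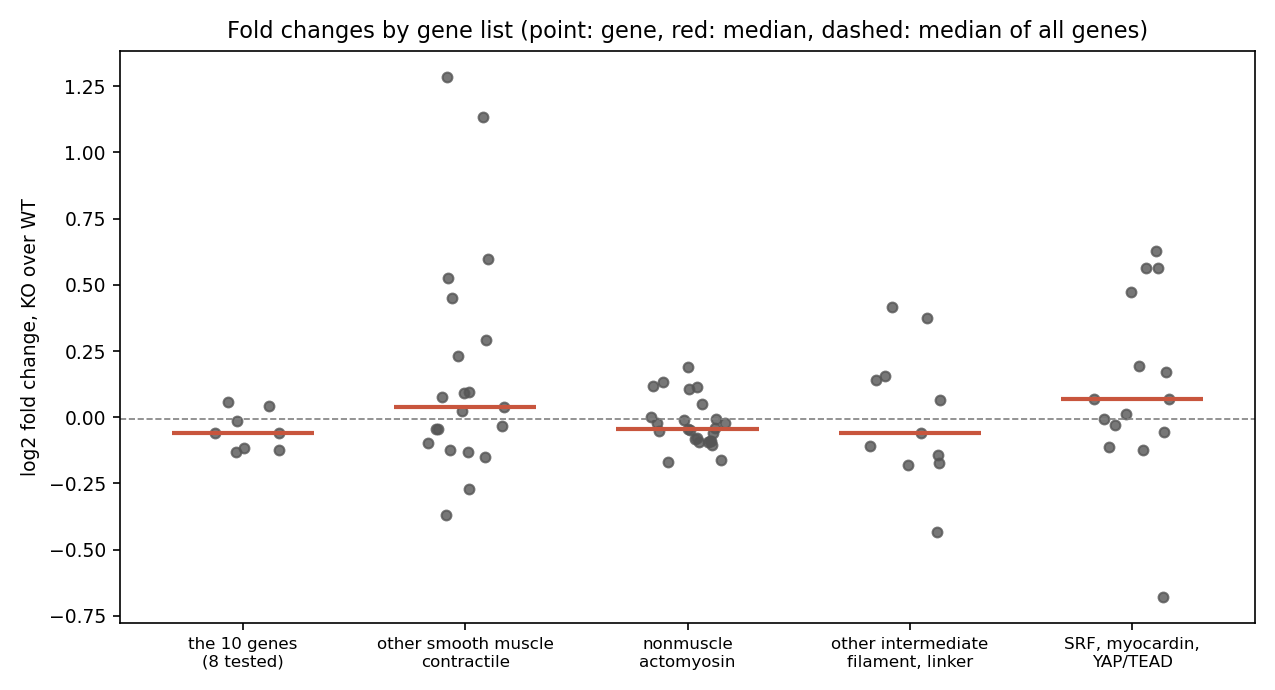
log2 fold change of KO over WT for the tested genes of 5 lists, 1 point per gene, with the list's median in red and the median of all genes as a dashed line. The 8 tested genes of the set lie between -0.13 and 0.06, and the 2 highest points among the other smooth muscle genes are Aoc3 and Jph2.

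Markers of the cells that could supply these transcripts are given as sums beside the set, and none of their genes passed edgeR's test. The 12 stellate cell and pericyte markers, 4 higher and 8 lower with a median log2 fold change of -0.23, summed to 713 to 869 CPM in WT livers, and 690 to 761 CPM in KO livers. The 11 vascular smooth muscle markers, of which 8 were tested with 5 higher and a median of 0.08, summed to 57.5 to 83.5 and 56.8 to 65.5 CPM. Pln and Map3k7cl among them were at or near 0. The 10 portal fibroblast markers, 7 of 8 tested higher with a median of 0.32, summed to 141 to 256 and 215 to 276 CPM. The 7 mesothelial markers, 5 of 6 tested higher with a median of 0.75, summed to 13.0 to 16.6 CPM in WT livers, and 18.5 to 28.2 CPM in KO livers, without overlap. The 8 bile duct markers, 7 higher with a median of 0.38, summed to 296 to 423 and 438 to 563 CPM, also without overlap. Pkhd1 was the largest part of that sum, at 168 to 251 and 250 to 369 CPM, and its own values overlapped. Of the 8, 5 were higher at an unadjusted p under 0.05 in edgeR, where the share over all genes was 3.08%. Stellate cell markers had 2 of 12 tested under that mark, 1 higher and 1 lower in KO. Portal fibroblast and mesothelial markers had 2 each, of 8 and 6 tested, all higher in KO. Over all genes 5.19% were under it. The 9 endothelial markers, 1 higher and 8 lower with a median of -0.15, summed to 689 to 948 and 644 to 759 CPM. The medians of leukocyte, hepatocyte and acute phase genes were -0.07, -0.05 and -0.17, with 3 of 10, 2 of 10 and 3 of 11 higher. Tnni2 was the only skeletal muscle marker tested (log2 fold change 1.01, SE 0.39, adjusted p = 0.850) and reached at most 0.958 CPM. The part of any of these cells in the values of the contractile genes was not tested.

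By the mean absolute difference between profiles over the 6 libraries, in log2 CPM centred on each gene's mean, the genes near to Acta2 included Trp53inp2 (0.029), Rnf144b (0.042), Prr16 (0.050) and 4833439L19Rik (0.051). Within the set the nearest were Vim (0.161) and Myh11 (0.164), at ranks 1321 and 1457 of 15026 genes with a mean of at least 1 CPM. Myl9 (0.387) was the farthest from Acta2 of the 7 compared, at rank 12788.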

How the data were processed

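Values are raw read counts as deposited by the authors, whole numbers for each Ensembl gene and sample. Per the submitters' processing notes, which assign no roles, the genome is GRCm38 (mm10) and the tools include featureCounts 1.6.3, DESeq2 1.30.0 and STAR 2.7.6a. Per the labels' protocols, polyadenylated RNA went through a directional library kit. Neither annotation release nor counting strand was given in the sources used here.

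Symbols, positions and exon lengths came from GENCODE M21 (GRCm38), which held 52135 of 55416 IDs (94.1%). All 10 genes matched. The test was edgeR 4.0.16 in R 4.3.3 (glmQLFit, glmQLFTest, TMM, filterByExpr with a minimum count of 10 and total of 15, genotype as the sole term), fitted and adjusted over 17083 genes. CPM are scaled by TMM, and a prior count of 2 was added before taking logs. Intervals are at 95%. In these libraries 1 CPM corresponds to 20.2 to 26.4 reads. Chi-square per degree of freedom between libraries was 10.4 to 69.6, so each counted as 1 replicate. Alternatives used DESeq2 1.42.0, limma 3.58.1 and other scalings, filters and libraries. The procedure was also run on simulated counts, drawn independently for each library. That checks the code and not its power in these livers.

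The 10 genes, 5 pathway lists and 10 marker lists were chosen with earlier results of these data known. Besides the 10 genes, Ephb2 and Pdgfrb, the rule named 2 genes of smallest p per pathway list and the 5 nearest to Acta2, of which 1 is not reported here. Actb, Srf, Myocd, Myh6, Mylk, Rcan2, Ppp1r12b, Pdlim7, Ppp1r14a and the single marker genes were named outside it.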

Additional observations from a re-analysis of the deposited data

How the results depend on the processing

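Of the 10 genes, 0 were called under any of the 16 alternatives. Cnn1 and Actg2 could be called only in fits that kept them, such as edgeR without a count filter and DESeq2. Over all genes, the count of 0 became 3 without a count filter, 7 with DESeq2 and 2 without WT replicate 3 (0 to 2 over the libraries left out). Of 128 single-gene values under alternatives 114 kept their direction and 14 changed it, 10 of them with a library left out. None of the 128 passed the threshold. Scaling by library size alone turned Myl9 (0.014), Tpm1 (0.023) and Des (0.064), and upper-quartile scaling turned Des (0.019). With 1 library left out, log2 fold changes ran from -0.21 to 0.12 for Myl9, from -0.13 to 0.0096 for Tpm1, from -0.13 to 0.18 for Tpm2, from -0.038 to 0.011 for Des, from -0.028 to 0.12 for Vim and from -0.48 to 0.031 for Myh11. All these lie inside the 95% intervals of the full fit, but the fits share most of their libraries, so this does not measure stability. Acta2 and Tagln kept their direction under all 16. A kept direction does not show that the interval still excludes a given fold.

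Samples with the same replicate number did not deviate together (correlations -0.026, -0.44 and -0.31), so no pairing by number was seen. WT replicate 3 and KO replicate 2 had a correlation of 0.37. With so few libraries, and such likeness between other samples, the check cannot exclude a shared batch. With the replicate number as a block 0 genes were called, 537 had an unadjusted p under 0.05 against 886, and no log2 fold change of the 8 tested genes changed direction (Acta2 -0.13, Myh11 -0.16, Tagln -0.13). Depth limits Cnn1 and Actg2, at 1 to 20 reads per library, and 3 reads correspond to 0.114 to 0.149 CPM.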

Other observations

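The desmin to vimentin ratio ran from 0.0651 to 0.0830 in WT livers, and from 0.0658 to 0.0776 in KO libraries, and was lowest in WT replicate 3 and KO replicate 2, the libraries with the most Vim. The ratio of Acta2 to Vim ran from 0.0627 to 0.0827 in WT and from 0.0522 to 0.0731 in KO libraries. Over the 10 genes, KO replicate 2 was the highest library for 5 and the lowest for 0, and KO replicate 3 was the lowest for 4 and the highest for 0. Among all genes with a mean of at least 1 CPM, KO replicate 2 was the highest for 14.4% and KO replicate 3 the lowest for 19.5%. Cnn1 and Actg2 are below that level. Without them, KO replicate 2 was the highest for Acta2, Myh11 and Vim, and KO replicate 3 the lowest for Acta2, Myh11 and Tagln.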
